A study of Mus musculus with 12 samples.

Results

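The genes described here are 34 components and regulators of the mitotic spindle and of its checkpoint, measured in 4 mouse lung adenocarcinoma cell lines on 3 arrays each. They were taken as a list of gene symbols, and a probe set counted for a gene where the array annotation gave it that symbol alone. All 34 were measured, among 18193 genes so measured in all, and the brightest of a gene's probe sets stood for the gene. The study grew lines from primary lung tumours of mice and set highly metastatic against poorly metastatic ones. KC1, KC2 and KC3 carry the label highly metastatic and KC4 the label poorly metastatic. Every line has the genotype K-rasLA1/+; Cdkn1a-/- on a background given as 127s, so the activated K-ras allele and the loss of p21 are common to all groups. All were kept in RPMI medium with 10% FBS, and the labels used here give no age. The labels speak of 6 tumours from 4 mice for the 4 lines and assign no line to a mouse. KC4 is the only poorly metastatic line, so the metastatic class and the line KC4 cannot be told apart. The 3 arrays of a line are labelled biological replicates without saying whether they were separate cultures, so p-values measure the spread between these samples.

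Values are the deposited linear signals, and differences are on the log2 scale with signals under 16 set to 16. The median signal of an array ran from 94.5 to 128, with the 3 arrays of KC3 at 96.2, 94.5 and 112. Spearman correlations across genes were 0.980 to 0.983 within a line and 0.941 to 0.963 between lines. The number of arrays, 3 per line, limits the precision. Epithelial markers summed to between 65580 and 94280 in signal on every array, while 6 lung lineage markers summed to at most 744.8. Markers of fibroblasts (9 genes, at most 734, Pdgfrb at the floor on all arrays), immune cells (8 genes, at most 1360) and endothelium (6 genes, at most 550.3, Tie1 at the floor on all arrays) were low in all lines. The probe set of Cdkn1a read 3875 to 8209 on every array although the label gives both copies as lost, and whether it lies outside the deleted stretch was not checked here. A control probe set at the 5-prime end of 18S ribosomal RNA averaged 3305 in KC4 and 414 to 605 in the other lines. It moved with every difference that involves KC4, and its part in them was not tested.

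At mitosis, cyclin-bound Cdk1 and the Plk1 and Aurora kinases drive chromosome condensation and the building of a bipolar spindle. Kinetochores tie each chromosome to spindle microtubules, and the spindle checkpoint holds back the anaphase-promoting complex, a ubiquitin ligase, until every chromosome is attached. Most of these genes are transcribed mainly in the later part of the cell cycle and are switched off in resting cells, so in tumours their messenger RNA is widely read as a mark of dividing cells. In RNA from a whole culture, fewer cells in division and less of a transcript per dividing cell cannot be told apart.

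KC3 had the lowest level of most of these genes and KC4 the highest level of many. The mean log2 signal over the 34 genes was 10.51 to 10.60 on the 3 arrays of KC3, 11.17 to 11.18 in KC1, 11.17 to 11.23 in KC2 and 11.34 to 11.37 in KC4. The arrays of KC3 lay apart from all others, and the 3 arrays of KC4 lay just above those of KC1 and KC2. KC3 had the lowest line mean for 30 of the 34 genes, against 29.9% of all genes. KC4 had the highest line mean for 20, against 25.6% of all genes. KC2 was highest for 9 (29.7% of all genes), KC1 for 5 (20.6%) and KC3 for 0 (24.1%). The array of KC3 with the highest overall median signal, 112, had the lowest mean of the 34 genes.

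**Figure D1:**
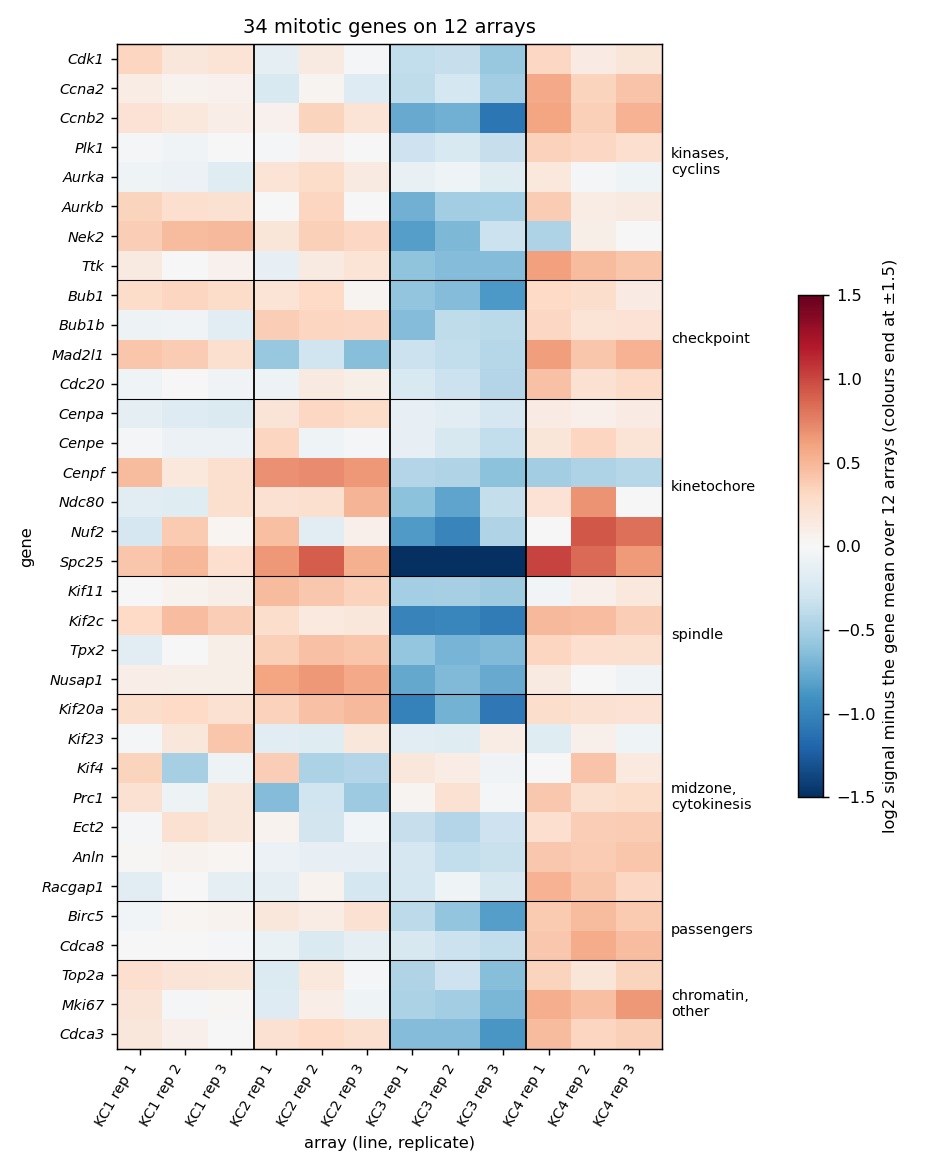
Log2 signal of the 34 genes (rows, grouped by role) on the 12 arrays (columns, 3 per line), each drawn as the difference from that gene's mean over the 12 arrays, with colours ending at 1.5 either way. The columns of KC3 are the blue ones for most genes, KC4 is red for many, and Kif23 and Kif4 show no such split.

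Each pair of lines was compared with limma across all 18193 genes, and 32 of the 34 genes differed among the 4 lines at an adjusted p under 0.05 (49.6% of all genes, and 84.1% of the 6596 genes within the same range of mean signal). The exceptions were Kif23 (adjusted p = 0.391) and Kif4 (adjusted p = 0.639). Against KC4, 29 of the 34 were lower in KC3 (16% of all genes, 24.5% in the same range of brightness) and 0 were higher. KC3 was also lower than KC1 for 25 (16.6% of all genes) and lower than KC2 for 28 (19.1% of all genes). In those comparisons 0 genes were lower in KC1 than in KC3, and Prc1 alone was lower in KC2 than in KC3. The median difference over the 34 genes was -0.75 for KC3 minus KC4, a 1.68-fold lower signal, beside -0.02 over all genes. It was 0.62 for KC1 minus KC3 and 0.60 for KC2 minus KC3, beside 0 and 0.05 over all genes. These 3 comparisons share the arrays of KC3.

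KC3 was lower than each of the other 3 lines by these tests for 22 of the 34 genes (7.06% of all genes, 11.9% in the same range of brightness). For 25 of them every array of KC3 lay under every array of the other lines (8.44% of all genes). KC4 was higher than each other line by these tests for 8 genes (4.68% of all genes), namely Ccna2, Plk1, Ttk, Cdc20, Anln, Racgap1, Cdca8 and Mki67. Every array of KC4 lay above every other array for 13 genes (6.9% of all genes), which are those 8 with Ccnb2, Prc1, Ect2, Birc5 and Cdca3. The arrays of KC3 were dimmer by their median than most others. After each array was centred on its median, KC3 minus KC4 still passed for 24 genes and the median difference was -0.57. Over all genes, 9.24% were then lower and 21.1% higher in KC3 than in KC4, against 16% and 17.8% before. KC1 minus KC3 and KC2 minus KC3 then passed in that direction for 15 genes each (9.44% and 10.4% of all genes). KC3 was lower than each other line for 10 (3.33% of all genes) and had the lowest mean for 23 (18%). With quantile normalization it was lower than each line for 21 genes (6.83% of all genes).

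**Figure D2:**
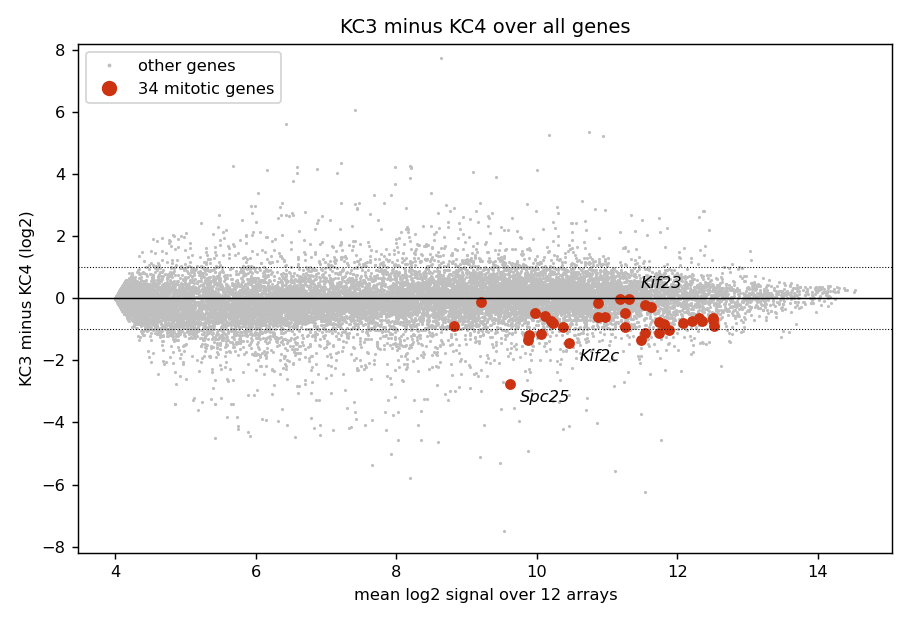
Difference KC3 minus KC4 (log2, vertical) against mean log2 signal over the 12 arrays (horizontal), 1 point per gene, with the 34 mitotic genes in red and dotted lines at 1 and -1. All 34 red points lie under 0, from -2.75 (Spc25) to -0.02 (Kif23), while 51.8% of all genes do.

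KC1 and KC2 differed much less from each other and from KC4. Between KC1 and KC2, 4 genes were higher in KC1 (14.1% of all genes) and 7 higher in KC2 (12.3%), and the median difference was -0.02. Against KC4, 13 genes were lower in KC1 (12.2% of all genes) and 2, Cenpf and Nek2, were higher (13.5%). Likewise 13 were lower in KC2 than in KC4 (17.5% of all genes), and 4, Cenpf, Nusap1, Kif11 and Cenpa, were higher (18%). The small difference of Cenpa was opposite at 1 dim probe set and of the same sign at another. The median differences were -0.29 and -0.23. For KC2 minus KC4 the members spread from -1.03 (Mad2l1) to 1.15 (Cenpf), so neither direction covered them all.

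A difference of at least 1 on the log2 scale (a fold of 2) together with an adjusted p under 0.05 is called large here. Large differences in at least 1 comparison were found for 14 of the 34 genes, a pooled count for which no share of all genes is given here. Of them 9 were lower in KC3 than in KC4 (4.7% of all genes), 5 were lower in KC3 than in KC1 (5.33%) and 7 lower in KC3 than in KC2 (5.9%). KC2 minus KC4 gave 1 large difference in each direction (5.02% of all genes higher, 4.46% lower), and KC1 gave 0 against KC2 (3.09% of all genes higher, 1.91% lower) or KC4 (3.49% and 2.05%). In the other direction 0 members were higher by a large difference in KC3 than in KC4 (3.52% of all genes), KC1 (2.89%) or KC2 (4.94%). The shares of members lower in KC3 by a large difference were 26.5%, 14.7% and 20.6%. After median centring 4, 2 and 3 genes had such a difference against KC4, KC1 and KC2, and the shares of all genes for these are not given here.

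The stretch before the start of transcription was read for 30 of the 34 genes, because these genes tended to differ between lines together. The sequences are RefSeq promoter windows of assembly GRCm38.p6, from 250 bases before to 50 bases after the annotated start; Aurkb, Ccna2, Kif20a and Tpx2 were not matched. Genes of late G2 and mitosis are known to be controlled through a CHR element, which binds the DREAM and MuvB complexes, and through CCAAT boxes, which bind NF-Y. Both strands were searched for the CHR core TTTGAA, which reads TTCAAA from the other side, and for CCAAT, which reads ATTGG from the other side; neighbouring matches may share a base or a few. Windows of 4 genes are printed from 120 bases before the start to 30 after it, in the direction of transcription, with the matches in capitals. Spc25 differed most between KC3 and KC4, and Ccnb2 has several CCAAT boxes. Cenpf was low in KC4 as well as in KC3, and Kif23 did not pass between any lines by its brightest probe set. The 4 were chosen after their values were seen.
Spc25 (chr2:69206184-69206333, minus strand): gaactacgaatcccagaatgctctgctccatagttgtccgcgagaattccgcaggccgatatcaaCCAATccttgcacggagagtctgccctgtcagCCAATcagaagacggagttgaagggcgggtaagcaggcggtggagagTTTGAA
Ccnb2 (chr9:70421525-70421674, minus strand): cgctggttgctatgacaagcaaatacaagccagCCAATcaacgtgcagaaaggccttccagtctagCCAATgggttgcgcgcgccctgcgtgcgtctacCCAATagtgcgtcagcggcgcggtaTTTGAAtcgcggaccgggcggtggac
Cenpf (chr1:189688057-189688206, minus strand): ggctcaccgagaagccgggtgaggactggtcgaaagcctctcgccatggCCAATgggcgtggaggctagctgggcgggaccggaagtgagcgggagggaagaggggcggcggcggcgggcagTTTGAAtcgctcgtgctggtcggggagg
Kif23 (chr9:61946770-61946919, minus strand): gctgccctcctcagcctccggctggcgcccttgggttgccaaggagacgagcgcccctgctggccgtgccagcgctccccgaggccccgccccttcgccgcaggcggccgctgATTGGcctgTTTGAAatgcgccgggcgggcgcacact
Spc25 and Ccnb2 bear several CCAAT boxes before a CHR core near the start, Cenpf holds a CCAAT in the printed stretch and another further out at -132, and Kif23 has the CHR core and a CCAAT match on the other strand. With the start base counted as 1 and the base before it as -1, the CHR core began at 25 in Spc25, at 5 in Ccnb2, at 3 in Cenpf and at 3 in Kif23. CCAAT began at -55 and -23 in Spc25 and at -87, -54 and -21 in Ccnb2.

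Over all 30 windows the CHR core was found in 23 genes (76.7%), against 15.7% of the 14452 measured genes that have a window and 13.6% of those within the same range of brightness. CCAAT was found in 23 (76.7%), against 42%, and both motifs in 20 (66.7%), against 6.21%. For 21 genes a CHR match began within 50 bases of the start. In a list of 42 DNA replication genes, which are switched on earlier in the cycle, 6 of 35 with a window held the CHR core (17.1%). In lists closer to mitosis it was found in 16 of 32 further spindle and centrosome genes (50%), 7 of 16 condensin and cohesin genes (43.8%) and 11 of 29 further kinetochore genes (37.9%). It was rarer in regulators of mitotic entry (3 of 11, 27.3%) and in the anaphase-promoting complex and its regulators (5 of 19, 26.3%). CCAAT was found in 60% of the replication genes. Over all the other lists its share ran from 42.1% (anaphase-promoting complex) to 72.7% (mitotic entry regulators). The median KC3 minus KC4 difference was -0.70 over the 23 genes with a CHR match and -0.90 over the 7 without, Birc5, Bub1, Cenpe, Mad2l1, Nek2, Nuf2 and Nusap1. These are matches of letters and show no binding.

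**Figure D3:**
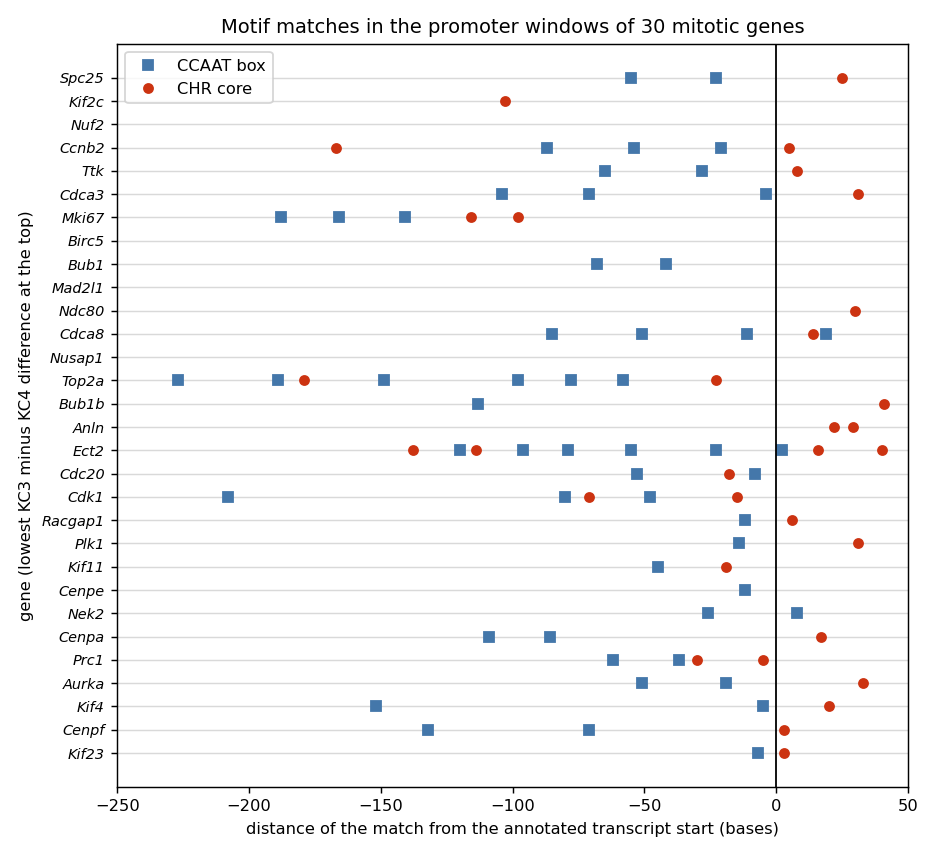
Position of each CHR core match (red circles) and CCAAT match (blue squares) relative to the annotated transcript start (vertical line), in bases, for the 30 genes with a promoter window, ordered by KC3 minus KC4. Genes with more than 1 annotated start have their matches drawn for each. CHR matches gather near the start, within 50 bases of it for 21 genes, and the genes without one lie between -1.34 and -0.48 in KC3 minus KC4.

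The 8 mitotic kinases and cyclins had a median of -0.71 for KC3 minus KC4, and 7 of them were lower in KC3. Ccnb2 encodes cyclin B2, a partner of Cdk1. Its signal was 3330, 3184 and 3066 in KC1, 3009, 3595 and 3306 in KC2, with 1700, 1733 and 1352 in KC3 and 4301, 3663 and 4093 in KC4. All 3 arrays of KC3 were far under the rest, and the 3 of KC4 were the highest. KC3 minus KC4 was -1.34 (SE 0.108, adjusted p = 1.51e-05), a 2.53-fold lower signal. Ccnb2 was also higher in KC1 and KC2 than in KC3, by 1.01 and 1.06. Ttk encodes Mps1, the kinase that starts the checkpoint signal at kinetochores. It read 1176, 1068 and 1114 in KC1, 977.2, 1171 and 1226 in KC2, with 702.4, 679 and 677.8 in KC3 and 1632, 1491 and 1425 in KC4. KC1 and KC2 overlapped, with KC3 below and KC4 above them, and KC3 minus KC4 was -1.14 (SE 0.0853, adjusted p = 9.5e-06).

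Nek2, a kinase that helps to separate the centrosomes, had another order. Its signal was 3171, 3397 and 3431 in KC1, 2772, 3140 and 3032 in KC2, with 1384, 1534 and 1964 in KC3 and 1777, 2608 and 2458 in KC4. The arrays of KC1 and KC2 lay above those of KC3 and KC4, which overlapped, although KC2 minus KC4 did not pass (0.40, adjusted p = 0.0862). KC1 minus KC3 was 1.05 (SE 0.161, adjusted p = 0.00081), KC1 minus KC4 was 0.57 (adjusted p = 0.0299), and KC3 minus KC4 was -0.48 (adjusted p = 0.0457). In a limma fit over single probe sets, a dimmer one of Nek2 gave 0.53 for KC2 minus KC4 (adjusted p = 0.00558) and -0.43 for KC3 minus KC4. Another, with 2 arrays at the floor, gave 2.445 (adjusted p = 0.00176) and 0.005. The last gave -0.09 and -0.32, and neither passed. The large difference of Nek2 between KC1 and KC3 became 0.94 without KC3 replicate 1, and its KC3 minus KC4 and KC1 minus KC4 did not pass without KC1 replicate 1 (adjusted p = 0.0623 and 0.0576) or several other arrays. Aurkb is the kinase of the chromosomal passenger complex, which corrects wrong attachments. It read 1517, 1426 and 1411 in KC1, 1197, 1495 and 1211 in KC2, with 732.6, 837.2 and 843.7 in KC3 and 1561, 1296 and 1322 in KC4, so KC3 alone stood apart. KC1 minus KC3 was 0.85 (adjusted p = 0.000212) and KC3 minus KC4 was -0.79 (SE 0.105, adjusted p = 0.000349).

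Among the other kinases and cyclins, Cdk1, the master kinase of mitosis, was lower in KC3 than in each line, by -0.64 against KC4, and did not pass between KC1 and KC4 (0.03). Plk1, which acts at centrosomes and kinetochores, was lower in KC3 than in KC4 by 1.51-fold with little spread (-0.59, adjusted p = 5.83e-06). Ccna2, cyclin A2, was lower in KC3 than in KC4 by -0.83. Aurka, the Aurora kinase of the spindle poles, was the kinase that did not pass between KC3 and KC4 (-0.15, adjusted p = 0.114). KC2 was its highest line and exceeded KC1 and KC3 by 0.31 and 0.32.

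All 4 checkpoint genes and activators of the anaphase-promoting complex were lower in KC3 than in KC4, with a median of -0.81. Mad2l1 encodes Mad2, which binds and blocks Cdc20. It read 7935, 7707 and 6997 in KC1, 3975, 4802 and 3806 in KC2, with 4742, 4587 and 4389 in KC3 and 9182, 7918 and 8498 in KC4. Here KC2 and KC3 formed the low pair and overlapped, and KC1 and KC4 the high pair. KC2 minus KC4 was -1.03 (SE 0.0936, adjusted p = 2.66e-05), the 1 large decrease of a member in KC2 against KC4. KC1 minus KC2 was 0.85 (adjusted p = 0.000172), the widest difference of any of the 34 genes between KC1 and KC2. KC2 minus KC3 was -0.13 (adjusted p = 0.335), with a 95% interval of -0.34 to 0.08.

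Bub1 and Bub1b, which build the checkpoint complex, did not share that order. No pair among KC1, KC2 and KC4 passed for Bub1, which was lower in KC3, by -0.93 against KC4 (adjusted p = 4.02e-05). Bub1b was higher in KC2 than in KC1 by 0.43 and higher in KC2 than in KC3 by 0.82. Cdc20, the activator that the checkpoint restrains, was highest in KC4 and lowest in KC3 on every array, and KC3 minus KC4 was -0.65 (adjusted p = 0.000139). A second bright probe set gave -0.33 (adjusted p = 0.0478 in a limma fit over single probe sets) and a dim one -1.26 (adjusted p = 0.00631). KC1 minus KC4 and KC2 minus KC4 did not pass at either, so KC4 exceeded those lines by the brightest probe set only.

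**Figure D4:**
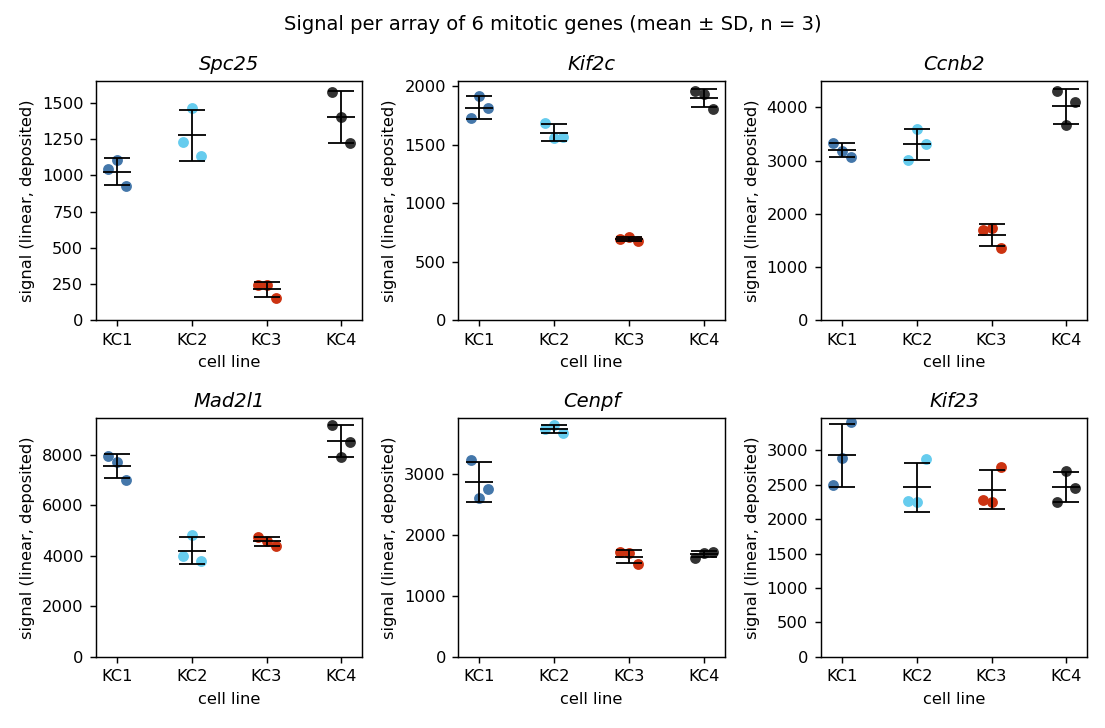
Deposited linear signal per array (points, 3 per line) with mean and SD (bars) for Spc25, Kif2c, Ccnb2, Mad2l1, Cenpf and Kif23. KC3 is under all other lines for Spc25, Kif2c and Ccnb2, KC2 and KC3 are both low for Mad2l1, KC3 and KC4 are both low for Cenpf, and the lines overlap for Kif23.

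Of the 6 kinetochore and centromere genes, 5 were lower in KC3 than in KC4, and the median was -0.68. Spc25, a subunit of the Ndc80 complex that grips microtubule ends, showed the widest difference of the 34 genes. It read 1043, 1109 and 928.5 in KC1, 1228, 1468 and 1132 in KC2, with 241.3, 243.1 and 151.3 in KC3 and 1579, 1405 and 1221 in KC4. The KC3 arrays were far below all others, and the other lines overlapped or nearly met. KC3 minus KC4 was -2.75 (SE 0.192, adjusted p = 6.28e-06), a 6.73-fold lower signal, KC2 minus KC3 was 2.62 and KC1 minus KC3 was 2.31. A second, dimmer probe set of Spc25 gave -0.34 for KC3 minus KC4 (adjusted p = 0.268 in a limma fit over single probe sets), so the 2 probe sets disagreed on the size.

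The other subunits of the same complex moved less. Nuf2 read 788.5, 1232 and 963.9 in KC1, 1290, 845.4 and 992.7 in KC2, with 520.7, 475.1 and 688.9 in KC3 and 935.9, 1790 and 1667 in KC4. The spread within a line was wide, and KC4 overlapped KC1 and KC2 but not KC3. KC3 minus KC4 was -1.34 (SE 0.286, adjusted p = 0.00551), while KC1 minus KC3 missed the threshold at 0.82 (adjusted p = 0.0561). Ndc80, which gives the complex its name, read 406.4, 401.4 and 534.1 in KC1, 531, 535.6 and 644 in KC2, with 295.3, 262.5 and 355.4 in KC3 and 527.8, 723.6 and 454.4 in KC4. KC3 again lay under all other arrays, and KC2 minus KC3 was 0.91 (SE 0.194, adjusted p = 0.00454) and KC3 minus KC4 -0.89 (adjusted p = 0.00634).

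Cenpf, a large protein of the outer kinetochore, went against the rest. It read 3239, 2610 and 2765 in KC1, 3744, 3817 and 3677 in KC2, with 1721, 1708 and 1519 in KC3 and 1633, 1701 and 1729 in KC4. KC3 and KC4 overlapped at the low end, KC1 was above them and KC2 above KC1. KC2 minus KC4 was 1.15 (SE 0.0791, adjusted p = 4.54e-06), KC1 minus KC4 was 0.76 (adjusted p = 0.00012), and KC3 minus KC4 was -0.03 with a 95% interval of -0.21 to 0.14. The other 2 probe sets of Cenpf gave 0.50 (adjusted p = 0.0793) and 0.81 (adjusted p = 0.0337) for KC2 minus KC4. For KC1 minus KC4 they gave -0.04 (adjusted p = 0.981) and 0.63 (adjusted p = 0.113), so that increase rested on the brightest probe set. Cenpe, a motor at the kinetochore, was lower in KC3 than in KC4 by -0.48 (adjusted p = 0.00635). Cenpa, the histone H3 variant that marks centromeres, was lowest in KC1 and highest in KC2, with KC1 minus KC2 at -0.45 (adjusted p = 8.54e-05) and KC3 minus KC4 at -0.28 (adjusted p = 0.000811). Of the 2 dimmer probe sets of Cenpa, 1 gave the opposite sign for KC2 minus KC3, at -2.76, and for KC2 minus KC4, at -3.16 (adjusted p = 0.000315) where the brightest gave 0.15 (adjusted p = 0.0215). That probe set had 1 array at the floor and a mean log2 signal of 4.92 in KC2. The other had the sign of the brightest, at 1.10 (adjusted p = 0.00047) and 0.92 (adjusted p = 0.00154) in the limma fit over single probe sets.

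The 4 spindle motors and microtubule binders were lower in KC3 than in each of the other lines, and their median was -0.84 for KC3 minus KC4. Kif2c encodes MCAK, which takes microtubules apart at kinetochores. It read 1726, 1920 and 1813 in KC1, 1689, 1557 and 1571 in KC2, with 698, 711.6 and 677.3 in KC3 and 1958, 1937 and 1811 in KC4. The arrays of KC3 lay close together and under all others, and KC3 minus KC4 was -1.45 (SE 0.0516, adjusted p = 9.36e-08), a 2.73-fold lower signal. Of its 3 dimmer probe sets, 2 also passed for KC3 minus KC4, at -1.10 and -0.49, and the third, at -0.30, did not.

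By the brightest probe sets of Nusap1, Tpx2 and Kif11, KC2 was the highest line. Nusap1, which bundles microtubules near chromosomes, read 3688, 3662 and 3656 in KC1, 5167, 5407 and 5101 in KC2, with 2027, 2163 and 2040 in KC3 and 3757, 3452 and 3336 in KC4. KC2 minus KC3 was 1.33 (SE 0.0477, adjusted p = 8.51e-08) and KC2 minus KC4 was 0.57 (adjusted p = 1.52e-05). In a limma fit over single probe sets, a dimmer one of Nusap1 gave 0.81 for KC2 minus KC3 (adjusted p = 0.00754). It did not pass for KC2 minus KC4 (0.42, adjusted p = 0.132) or KC3 minus KC4 (-0.40, adjusted p = 0.154). Tpx2 activates Aurora A and nucleates microtubules, and it read 1175, 1335 and 1411 in KC1, 1698, 1792 and 1763 in KC2, with 884.8, 812.7 and 833 in KC3 and 1655, 1572 and 1560 in KC4. For Tpx2, KC2 was just above KC4 without passing (0.13, adjusted p = 0.164), and KC2 minus KC3 was 1.05 (SE 0.0659, adjusted p = 2.17e-06). Dimmer probe sets of Tpx2 gave 0.60 (adjusted p = 0.00436), 0.20 (adjusted p = 0.232) and 0.27 (adjusted p = 0.114) for KC2 minus KC3. At the first and last of these KC4 was above KC2, with KC2 minus KC4 at -0.28 and -0.19, and neither passed. Kif11, the Eg5 motor that pushes the spindle poles apart, read 1108, 1152 and 1181 in KC1, 1539, 1466 and 1416 in KC2, with 781, 788.2 and 768 in KC3 and 1082, 1179 and 1247 in KC4. KC1 and KC4 overlapped for Kif11 (-0.03), KC2 minus KC3 was 0.92 (SE 0.0541, adjusted p = 1.5e-06) and KC2 minus KC4 was 0.34 (adjusted p = 0.000959).

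The 7 genes of the spindle midzone and cytokinesis were the most mixed group: 4 were lower in KC3 than in KC4, with a median of -0.60. Kif20a, a midzone motor needed for cytokinesis, read 1134, 1164 and 1108 in KC1, 1198, 1279 and 1322 in KC2, with 469.1, 578.1 and 449.7 in KC3 and 1138, 1108 and 1097 in KC4. KC3 lay apart and the other lines were close together, with KC2 minus KC3 at 1.35 (SE 0.0847, adjusted p = 2.19e-06) and KC3 minus KC4 at -1.17 (adjusted p = 7.85e-06). Prc1, which crosslinks the midzone microtubules, read 3468, 2818 and 3353 in KC1, 1904, 2412 and 2041 in KC2, with 3067, 3475 and 2923 in KC3 and 3938, 3504 and 3594 in KC4. By this probe set KC2 was the low line, with KC2 minus KC3 at -0.58 (adjusted p = 0.00274) and KC2 minus KC4 at -0.80 (SE 0.112, adjusted p = 0.000405). A second probe set of Prc1 also put KC2 lowest and gave -0.57 for KC3 minus KC4 (adjusted p = 1.08e-05), where the first gave -0.22 (adjusted p = 0.174).

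Kif23, a motor of the centralspindlin complex, read 2498, 2883 and 3410 in KC1, 2268, 2250 and 2879 in KC2, with 2281, 2253 and 2754 in KC3 and 2255, 2700 and 2448 in KC4. The lines overlapped, and KC3 minus KC4 was -0.02 with a 95% interval of -0.35 to 0.30. A dimmer probe set of Kif23 gave 0.50 for KC1 minus KC3 (adjusted p = 0.0364 in a limma fit over single probe sets). For KC3 minus KC4 it gave -0.43 (adjusted p = 0.067). Racgap1, its partner in centralspindlin, was higher in KC4 than in each other line, and no pair among those passed, with KC3 minus KC4 at -0.60 (adjusted p = 0.000921) and KC1 minus KC3 at 0.09 (adjusted p = 0.576). A second probe set of Racgap1 gave 0.42 for KC1 minus KC3 (adjusted p = 0.0028), 0.63 for KC2 minus KC3 (adjusted p = 0.000184) and -0.19 for KC2 minus KC4 (adjusted p = 0.092), so the probe sets disagreed on KC3 and on KC2. Kif4, a chromosome-bound motor, ranged from 417.8 to 792 over the arrays with overlapping lines, and KC3 minus KC4 was -0.11 with a 95% interval of -0.71 to 0.49. Anln, the scaffold anillin of the contractile ring, had the smallest spread between arrays of the 34 genes, a pooled SD of 0.03. It read 4762, 4902 and 4823 in KC1, 4451, 4367 and 4337 in KC2, with 3957, 3676 and 3751 in KC3 and 6249, 6165 and 6303 in KC4, and every pair of lines passed. Ect2, which activates RhoA for the ring, was lower in KC3 than in KC4 by -0.70 (adjusted p = 0.000406). Kif23, Kif4 and Anln were given in full after their values were seen.

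Of the chromosomal passengers, Birc5 encodes survivin. It read 3678, 3815 and 3905 in KC1, 4216, 4077 and 4428 in KC2, with 2865, 2485 and 2116 in KC3 and 4955, 5209 and 4938 in KC4. KC3 was the lowest and KC4 the highest without overlap, and KC3 minus KC4 was -1.03 (SE 0.0934, adjusted p = 3.29e-05). Cdca8, which encodes borealin, was lower in KC3 than in KC4 by -0.79 (adjusted p = 3.87e-06), and its KC4 arrays, from 5781 to 6445, were well above all others.

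Mki67, Cdca3 and Top2a completed the list, and all were lower in KC3 than in each other line. Mki67 encodes Ki-67, which coats mitotic chromosomes and is the common histological marker of dividing cells. It read 3931, 3363 and 3467 in KC1, 2998, 3674 and 3286 in KC2, with 2466, 2389 and 2135 in KC3 and 5000, 4681 and 5367 in KC4. KC1 and KC2 overlapped between a lower KC3 and a higher KC4, and KC3 minus KC4 was -1.11 (SE 0.0953, adjusted p = 2.32e-05). KC1 minus KC4 and KC2 minus KC4 were -0.48 (adjusted p = 0.00486) and -0.60 (adjusted p = 0.000894). Cdca3, which promotes entry into mitosis, read 3368, 3149 and 2993 in KC1, 3483, 3691 and 3534 in KC2, with 1898, 1913 and 1624 in KC3 and 4140, 3744 and 3817 in KC4, with KC3 minus KC4 at -1.11 (SE 0.0732, adjusted p = 4.45e-06). Top2a, the topoisomerase that untangles chromosomes, read 6240, 6003 and 5972 in KC1, 4537, 5833 and 5134 in KC2, with 3855, 4248 and 3382 in KC3 and 6604, 5959 and 6596 in KC4. KC1 and KC4 overlapped for Top2a, and KC3 minus KC4 was -0.74 (SE 0.104, adjusted p = 0.000464).

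The study's own comparison set the mean of KC1, KC2 and KC3 against KC4. In this contrast 26 of the 34 genes had a lower mean over the highly metastatic lines (15.3% of all genes, 26.8% in the same range of brightness) and 1, Cenpf, was higher (16.8%), with a median of -0.40 beside 0.00 over all genes. The other 2 probe sets of Cenpf did not pass in this contrast, at 0.06 (adjusted p = 0.866) and 0.28 (adjusted p = 0.38) in the limma fit over single probe sets. Spc25 was the 1 gene with a large decrease, at -1.11 (SE 0.157, adjusted p = 0.000523; 2.57% of all genes), and 0 had a large increase (2.87%). All 4 checkpoint genes, both passengers and all 3 of Mki67, Cdca3 and Top2a were among the 26. So were 6 of 8 kinases and cyclins, 4 of 6 kinetochore genes, 5 of 7 midzone genes and 2 of 4 spindle motors and binders.

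KC3 weighed heavily in this contrast. Without KC3, 16 genes were lower (15.6% of all genes) and 3, Nek2, Cenpf and Nusap1, were higher (16.7%), and the median was -0.22. Spc25 was then -0.29 (adjusted p = 0.107). A further limma fit took the line as a random block, with a correlation of 0.58 between arrays of a line shared by all genes. Spc25 then had an adjusted p of 0.775, and 2 genes were lower (0.857% of all genes). These were Cdca8 at -0.64 (adjusted p = 0.0175) and Anln at -0.53 (adjusted p = 0.0262). In both, the KC4 arrays lay above all other arrays. This fit is not a test with the 4 lines as the units, and KC4 is the only line of its class.

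Dimmer probe sets of the same genes allowed a further look. There were 39 of them for 23 of the genes, and 35 had the same sign as the brightest probe set for KC3 minus KC4. Of these 21 passed on their own, and 0 passed in the other direction. For KC2 minus KC3 the numbers were 33 with the same sign, 22 of them past the threshold, and 1 past it in the other direction, the probe set of Cenpa. For KC2 minus KC4 they were 28, 11 and 1, again of Cenpa.

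Other cell-cycle genes were examined as lists beside the 34. For each list, the shares over all genes were 16% lower and 17.8% higher in KC3 than in KC4. Among 37 further genes of the spindle and centrosome, 25 were lower in KC3 than in KC4 and 1 higher, with a median of -0.53. Haus8, a subunit of the augmin complex that branches microtubules, had KC3 minus KC4 at -2.21 (adjusted p = 3.18e-06). Its class contrast was -1.53 (adjusted p = 9.03e-06), and KC4 was above every other line. Stmn1, stathmin, which destabilises microtubules, had KC3 minus KC4 at -1.15 (adjusted p = 4.94e-06) but was higher in KC1 than in KC4 by 0.69 (adjusted p = 0.00019). Fam83d, which brings a kinase to the spindle, had KC3 minus KC4 at -1.47 (adjusted p = 2.66e-05).

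Of 34 further kinetochore and checkpoint genes, 19 were lower in KC3 than in KC4 and 0 higher, with a median of -0.39. Ska1, of the complex that helps Ndc80 to follow microtubule ends, had KC3 minus KC4 at -1.11 (adjusted p = 0.0378), which was -0.70 (adjusted p = 0.0779) without KC3 replicate 3. That difference also did not pass when any of several other arrays was left out. Cenpi had its widest difference between KC2 and KC4, at -1.10 (adjusted p = 1.21e-05), and Mad1l1, the partner of Mad2, was higher in KC1 than in KC3 by 1.13 (adjusted p = 1.11e-05). Of 21 condensin and cohesin genes, 12 were lower and 4 higher, with a median of -0.35. Esco2, which acetylates cohesin, had KC3 minus KC4 at -2.47 (adjusted p = 1.21e-06), reading 603.9, 696.6 and 617.2 in KC4 and 109.3, 100.8 and 137.8 in KC3. Cdca5, sororin, and Ncapd2, of condensin I, were at -1.18 and -1.15.

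The anaphase-promoting complex and its regulators went both ways as a list. Of 20, 8 were lower in KC3 than in KC4 (16% of all genes) and 5 higher (17.8%), with a median of -0.10. Fbxo5, an inhibitor of the complex, was lower (-1.31, adjusted p = 3.32e-07), as was Espl1, the protease separase (-0.85, adjusted p = 0.000675), while the subunit Anapc16 was higher (0.86, adjusted p = 1.57e-05). Of 17 regulators of mitotic entry, 10 were lower and 1 higher, with a median of -0.40, and the kinases Melk and Pbk were at -1.62 and -1.23. Cdca2, which recruits a phosphatase to chromosomes, was at -1.20.

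Among 23 transcriptional regulators of these genes, 14 were lower in KC3 than in KC4 and 3 higher, with a median of -0.53. Foxm1 and Mybl2, which activate mitotic genes, had smaller differences. Foxm1 was lower in KC3 than in KC4 by -0.46 (adjusted p = 0.0195) and did not pass for KC2 minus KC3 (0.08, adjusted p = 0.687). Mybl2 was at -0.24 (adjusted p = 0.033). Without KC4 replicate 1 neither passed, at adjusted p = 0.0657 for Foxm1 and 0.0971 for Mybl2. Foxm1 also did not pass without KC3 replicate 3 or KC4 replicate 3. The same held for Mybl2 without KC3 replicate 1, KC3 replicate 3 or KC4 replicate 2. E2f8, a repressor, was at -1.54 (adjusted p = 4.67e-08), and Rbl2, the p130 pocket protein of the DREAM complex, at -1.53 (adjusted p = 1.5e-07). Rb1 was lowest in KC2, with KC2 minus KC4 at -1.54 (adjusted p = 9.57e-08).

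DNA replication genes, which act before mitosis, were also lower in KC3. Of 42, 34 were lower in KC3 than in KC4 and 0 higher, with a median of -0.63. Ccne2, cyclin E2, was at -2.40 (adjusted p = 1.54e-07), Uhrf1, which maintains DNA methylation, at -1.97 (adjusted p = 8.65e-08), and Lig1, the ligase of lagging strands, at -1.93 (adjusted p = 2.59e-06). In Uhrf1 KC1, KC2 and KC4 lay between 3664 and 4342 and KC3 between 893.3 and 1077. Ccne2, in contrast, was highest in KC4 alone, with KC1 minus KC4 at -1.01 and KC2 minus KC4 at -1.89. All these lists share the arrays of KC3 and KC4 with the 34 genes.

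**Figure D5:**
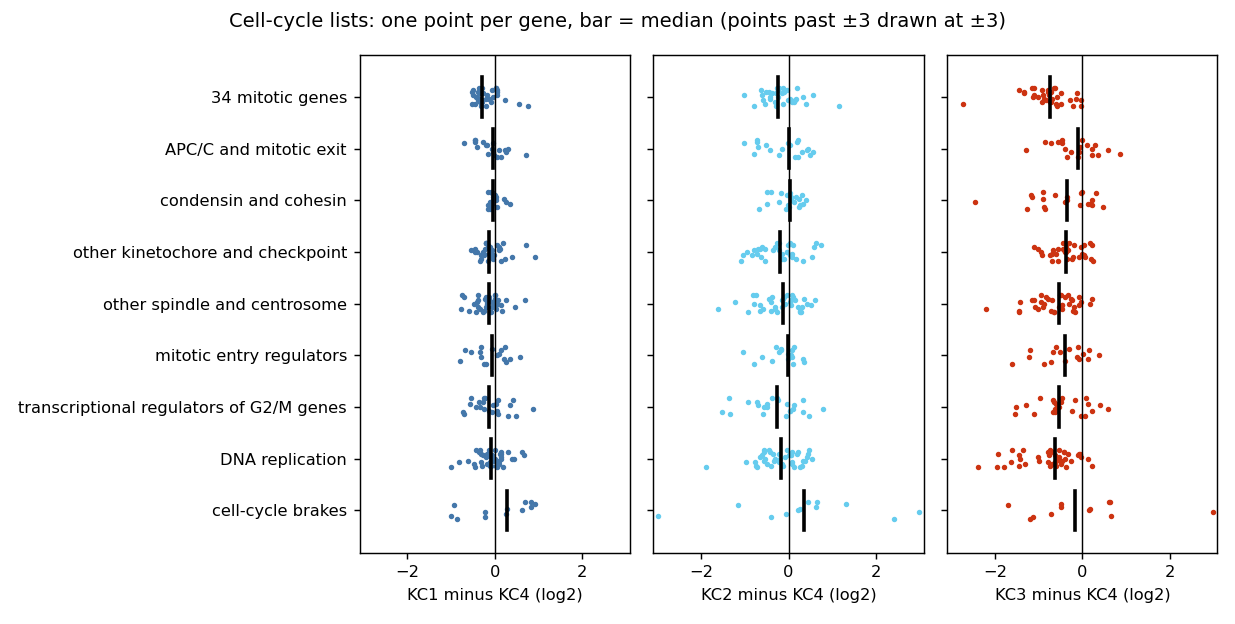
Difference of KC1, KC2 and KC3 from KC4 (log2, horizontal, 1 panel per line) for the genes of each list (vertical), 1 point per gene with the median as a bar, and points past 3 drawn at 3. In the panel of KC3 the medians of all lists lie left of 0, at -0.75 for the 34 genes and -0.63 for DNA replication, and those of the anaphase-promoting complex (-0.10) and the cell-cycle brakes (-0.17) lie nearest to it.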

How the data were processed

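RNA of 4 lines was read on 12 arrays, 3 per line. The authors deposited 1 linear intensity for each of 45101 probe sets and array; its software: not given in the sources used here. The mean of every array after trimming 2% at each end is 500.002 to 500.003, so total messenger RNA per cell cannot be read from these values. Probe sets with 1 gene symbol in the platform annotation numbered 34945 (932 had several, 9160 none, and 64 controls were left out). Signals were floored at 16 and put on the log2 scale, the probe set with the highest mean stood for each of 18193 genes, and 6 of the 34 used here end in s_at or x_at, which can pick up related transcripts. A linear model with a mean for each line was fitted in limma 3.58.1 (R 4.3.3), with eBayes and Benjamini-Hochberg adjustment over all genes; the method was tested on simulated data. Figures used matplotlib 3.10.9.

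The members, roles and lists were chosen with earlier results of these data known. Array values are printed for up to 12 genes with a large difference, ordered by its size, and for the next gene of each role group; up to 3 genes are named per list, and Cdkn1a, Foxm1 and Mybl2 always. Some listed genes are not reported here. Alternatives covered scaling, probe set choice, floor, filter, prior, thresholds, line or replicate as a block and leaving out arrays or lines; tests of single probe sets and the comparison with genes of the same brightness were chosen after seeing the data.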

Additional observations from a re-analysis of the deposited data

How the results depend on the processing

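Among the counts, medians and widest gene differences followed through these settings, no difference past the adjusted p reversed its direction. Cenpa was not among them and did reverse at 1 probe set. Its KC2 minus KC4 and KC2 minus KC3 were 0.15 and 0.44 at the brightest and -3.16 and -2.76 at a dimmer one with 1 array at the floor. Another dimmer probe set gave 0.92 and 1.10. The median of KC1 minus KC2, -0.02, turned to 0.01 with median centring and 0.11 with the most variable probe set. It was at about 0 (0.00012) without KC2 replicate 2. Large differences are counted over the 34 genes at an adjusted p under 0.05 and a log2 difference of at least 1. Median centring gave counts past the adjusted p of 7 for KC1 minus KC2, 15 for KC1 minus KC3, 7 for KC1 minus KC4 and 16 for KC2 minus KC3 in either direction, medians of 0.42, 0.36, -0.30 and -0.57 for KC1 minus KC3, KC2 minus KC3, KC2 minus KC4 and KC3 minus KC4, and 2, 3 and 4 large differences for KC1, KC2 and KC4 against KC3. The mean of all probe sets gave 0 large differences for the class and 1 for KC2 minus KC4, and a median of 0.52 for KC2 minus KC3. The most variable probe set gave 3 for the class, 10 for KC1 minus KC3, 2 for KC1 minus KC4, 12 for KC2 minus KC3 and 14 for KC3 minus KC4, 7 past the adjusted p for KC1 minus KC2, and medians of -0.56 (class), 0.11 (KC1 minus KC2), 0.68 (KC1 minus KC3), 0.67 (KC2 minus KC3) and -0.89 (KC3 minus KC4). A minimum of 0.5 gave 3, 18, 3, 19, 9 and 26 for KC1 minus KC2, KC1 minus KC3, KC1 minus KC4, KC2 minus KC3, KC2 minus KC4 and KC3 minus KC4, and a minimum of 2 gave 1, 1, 0 and 1 for KC1 minus KC3, KC2 minus KC3, KC2 minus KC4 and KC3 minus KC4. Taking line as a random block, the class had 0 large differences and 2 past the adjusted p. The class median was -0.49 without KC1, -0.52 without KC2 and -0.22 without KC3, with 0 large differences without KC3. Leaving out 1 array gave 1 to 2 large differences for the class (2 without KC4 replicate 1), 1 to 2 for KC2 minus KC4 (1 without KC2 replicate 1, KC2 replicate 3 or KC4 replicate 1) and a median of 0.51 to 0.65 for KC2 minus KC3. The causes of these shifts were not tested beyond what each setting does.

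Same-numbered replicates of different lines showed no shared deviation (correlations of -0.125 to 0.104, against -0.153 to 0.151 for different numbers). This cannot show whether same-numbered samples were handled together, and the main fit did not pair them. The replicate block left 29 genes past the adjusted p for KC3 minus KC4 and 26 for KC2 minus KC3, 25 for the class and 16 for KC1 minus KC4, and 9 large differences for KC3 minus KC4, and moved no count by more than 1.5 times.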

Other observations

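A list of 13 cell-cycle brakes, of which 12 were measured, went both ways. In KC3 against KC4, 5 were higher (17.8% of all genes) and 6 lower (16%), with a median of -0.17. Cdkn2b, which encodes the inhibitor p15 of the kinases that start the cycle, read 1505, 1443 and 1428 in KC2 and 1467, 1442 and 1438 in KC3. In KC1 it read 23.94, 14.59 and 14.64 and in KC4 11.82, 21.84 and 27.76, with 3 of these arrays under the floor of 16. Cdkn2a, its neighbour, was high in KC2 alone, at 379.6 to 385.5, against 24.11 to 36.87 in KC3, 35.28 to 45.81 in KC1 and 70.18 to 74.15 in KC4.

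Gadd45a, a stress-induced inhibitor of Cdk1, was highest in KC3, at 2958 to 3003, and lowest in KC2, at 196.3 to 211.1. KC2 minus KC3 was -3.88 (limma, adjusted p = 9.2e-09) and KC3 minus KC4 was 0.66 (adjusted p = 0.000481). No relation between these genes and the mitotic genes was tested, since 4 lines are too few for one.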
